A study of Mus musculus with 25 samples.

Results

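MicroRNA genes are short, and the open chromatin next to them is where their transcription can be started or tuned. The 2021 ATAC-seq peaks described here are those of 65053 consensus peaks (3.11%) whose nearest annotated gene is a microRNA gene, at any distance, as named in the deposited peak annotation. They belong to 521 microRNA gene names, of which 4 names with 13 peaks are long host transcripts (Mir99ahg, Mir143hg, Mir124a-1hg and Mir22hg) rather than the microRNA itself. Of the names, 191 had 1 peak, the median was 2 and the most was 37.

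A microRNA gene is transcribed as a long precursor, often from the intron or the exon of a host gene, and is cut by Drosha and Dicer into a short mature RNA. The mature RNA guides a silencing complex to messenger RNAs that pair with its seed, the stretch near its 5′ end, so microRNAs that share a seed share many targets. In pancreatic islets, miR-375 is among the most abundant microRNAs and restrains insulin secretion, miR-7 is a hallmark of hormone-secreting cells, and loss of Dicer in the endocrine pancreas disrupts beta cell identity.

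The samples were alpha TC1 clone 6 (αTC1), a mouse glucagon-producing line kept as 1 clone, and beta-TC-6 (βTC6), a mouse insulin-producing line, both from pancreatic islet tumours of transgenic mice. The labels name no treatment, and the lines were kept in different media, so line and medium cannot be told apart. ATAC-seq, in which a transposase cuts accessible DNA, was run on 5 libraries of each pure line and on 9 mixtures that held from 10% to 90% αTC1 cells, with 100000 cells a library. RNA-seq was run on 3 libraries of each pure line. No label ties the replicates to separate cultures, and the p-values therefore measure the spread between these libraries, which may be technical. Reads in peaks ranged from 6903416 to 8300868 in αTC1, from 4397851 to 10374903 in βTC6 and from 5277983 to 7294832 in the mixtures, and 3 reads corresponded to a normalized read count of 0.282 to 0.615 in βTC6 and of 0.409 to 0.451 in αTC1.

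Most line markers shown here followed the labels. Glucagon (Gcg) had 12928 ± 1282 FPKM in αTC1 and 229 ± 50.4 FPKM in βTC6, Ins1 0 and 2000.3 ± 395 FPKM, and the beta cell factor Pdx1 0 and 111 ± 8.07 FPKM (SD, n = 3 each). Ttr, also on the alpha cell list, did not pass, with 835 ± 154 and 1116 ± 526 FPKM (edgeR adjusted p = 0.215), and the delta cell marker Hhex was at 0.0867 and 0.00667 FPKM. Markers of other islet cells were also present in βTC6, with Sst at 256 ± 61.9 FPKM and Ppy at 26 ± 23.7 FPKM, and of the duct markers Sox9 was at 4.24 ± 0.186 FPKM in αTC1 and at 0 in βTC6 while Krt19 was at 0 in all libraries but 1 (0.08 FPKM, 1 expected count), the acinar marker Cela1 at 3.65 ± 0.0611 FPKM in αTC1 and 0.407 ± 0.363 FPKM in βTC6 and the mesenchyme marker Col1a1 at 0.14 ± 0.07 and 0.13 ± 0.0265 FPKM, while Prss2 and Col3a1 were at 0 in every library. The part of these RNAs in the peak differences below was not tested. Dicer1 itself had 14.6 ± 0.485 FPKM in αTC1 and 15.8 ± 0.648 FPKM in βTC6 (log2 fold change 0.26, SE 0.07, edgeR adjusted p = 0.00561).

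The mature microRNAs of the genes whose peaks are followed below are shown first, grouped by seed family, by genomic cluster or, for the last group, by the reason for showing them. Capitals mark the seed, bases 2 to 8, and the sequences are RefSeq's for GRCm38.p6. The let-7 seed GAGGUAG is shared by 7 of the microRNA genes with peaks, and let-7j, the product of Mir7j, differs from it in the last seed base.
mmu-let-7c-5p: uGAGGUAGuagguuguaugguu
mmu-let-7a-5p: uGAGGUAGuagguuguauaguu
mmu-let-7i-5p: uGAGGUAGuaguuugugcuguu
mmu-let-7b-5p: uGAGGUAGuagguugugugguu
mmu-let-7j: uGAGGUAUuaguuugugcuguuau

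miR-99a and miR-125b are the partners of let-7c in 1 cluster on chromosome 16, and miR-17 and miR-92a are the first and last members of the miR-17-92 cluster on chromosome 14.
mmu-miR-99a-5p: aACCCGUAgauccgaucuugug
mmu-miR-125b-5p: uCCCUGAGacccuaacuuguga
mmu-miR-17-5p: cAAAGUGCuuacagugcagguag
mmu-miR-92a-3p: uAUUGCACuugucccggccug

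The miR-15/16 seed is shared by 6 of the microRNA genes with peaks, miR-195b among them, and the miR-29 seed by 4.
mmu-miR-15a-5p: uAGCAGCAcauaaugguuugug
mmu-miR-16-5p: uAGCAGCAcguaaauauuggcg
mmu-miR-195b: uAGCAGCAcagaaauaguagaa
mmu-miR-29a-3p: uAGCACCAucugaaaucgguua
mmu-miR-29b-3p: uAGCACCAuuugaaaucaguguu
mmu-miR-29c-3p: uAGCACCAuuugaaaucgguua

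The seed of miR-107 is neither of these and is shared by 2 of the microRNA genes with peaks.
mmu-miR-107-3p: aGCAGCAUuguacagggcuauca

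The last group holds microRNAs with an islet or neuroendocrine record, or with a called peak within a few kilobases, each with its own seed.
mmu-miR-7a-5p: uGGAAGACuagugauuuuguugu
mmu-miR-130a-3p: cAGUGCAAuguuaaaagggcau
mmu-miR-148a-3p: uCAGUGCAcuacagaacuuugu
mmu-miR-26a-5p: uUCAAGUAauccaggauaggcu
mmu-miR-33-5p: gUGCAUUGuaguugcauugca
mmu-miR-96-5p: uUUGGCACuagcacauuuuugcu
mmu-miR-146a-5p: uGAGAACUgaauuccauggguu
mmu-miR-667-3p: uGACACCUgccacccagcccaag
mmu-miR-346-5p: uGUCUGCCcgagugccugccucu

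Of the 2021 peaks, 316 (15.6%) were more open in βTC6 and 127 (6.28%) were more open in αTC1, where more open means a higher TMM-normalized read count that passed limma on log2 of the count plus 1 (5 libraries a line) at an FDR under 5%, adjusted by Benjamini-Hochberg, with a log2 fold change beyond 2 in either direction. Over all 65053 peaks the same rule called 12.9% and 5.38%, so the shares next to microRNA genes lay close to those of the genome at large. The log2 fold changes, given as βTC6 over αTC1 throughout, had a median of 0.15 with quartiles of -0.86 and 1.48 next to microRNA genes, and a median of 0.0011 over all peaks. The FDR alone was met by 897 peaks on the βTC6 side and 735 on the αTC1 side, beside backgrounds of 39.9% and 38.1%. Under quantile normalization the split was 220 to 180, in place of 316 to 127, and that of all peaks 5655 to 5126, in place of 8409 to 3502. A pseudocount of 5 gave 67 and 24 (1668 and 819 of all peaks), and edgeR on recovered reads 507 and 196 (13794 and 5739 of all peaks). The scale understates the change of peaks with few reads. As both lines were profiled in bulk, an open site in fewer cells and a less open site in every cell cannot be told apart.

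The shares varied with distance. Of peaks within 2 kb of a microRNA start 14 of 168 were called in βTC6 and 12 in αTC1, where 5.51% and 1.41% of all peaks within 2 kb of their gene were called. From 2 to 10 kb the counts were 30 and 13 of 287 (9.78% and 7.6% of all peaks at that distance), and from 10 to 100 kb 126 and 85 of 935 (12.5% and 7.51%). Beyond 100 kb they were 146 and 17 of 631 (21.8% and 4.39%). Within 2 kb the shares were 8.33% and 7.14%, and whether they differ from the background was not tested. The 2 sets are also unlike, because a microRNA start need not be where its long precursor starts. Median GC content within 2 kb was 57% near microRNAs and 65% over all peaks. The order of the lines depended on the limit, since within 1 kb 6 of 111 peaks were called in βTC6 and 10 in αTC1 (5.19% and 1.03% of all peaks), and within 5 kb 27 and 16 of 291 (6.23% and 2.38%).

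**Figure D1:**
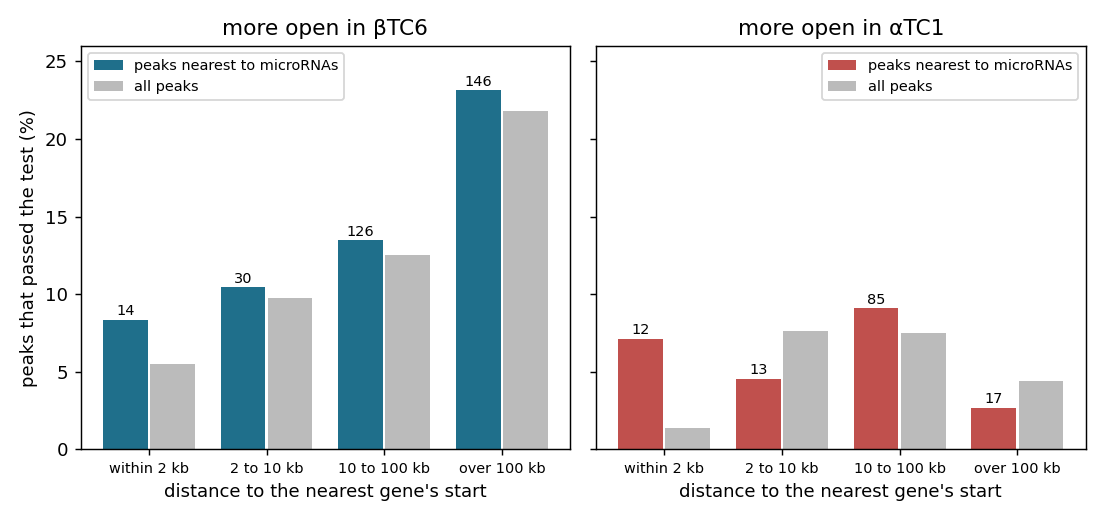
Percentage of peaks that passed the test (y axis) in 4 classes of distance to the start of the nearest gene (x axis), for peaks more open in βTC6 (left) and in αTC1 (right); coloured bars are peaks nearest to microRNA genes, with their number above, and grey bars are all consensus peaks. Calls in βTC6 grew with distance in both sets, and 12 of 168 peaks within 2 kb of a microRNA were more open in αTC1 against 1.41% of all peaks at that distance, with 14 in βTC6 (6 and, in αTC1, 10 of 111 within 1 kb). The sets are unlike, because a microRNA start need not be where its precursor starts.

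Of the peaks, 9.30% lay within 2 kb of a long gene's start, against 25.9% of all peaks, a difference that follows in part from choosing peaks nearest to a microRNA. They were in an intron in 936 cases, in an exon in 111 and between genes in 974 (48.2%). Their median width was 548 bp against 591 bp over all peaks, their median distance to the named gene 43552 bp against 28527 bp, and their median normalized read count over the pure libraries 6.55 against 7.39.

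Chromosomes differed in their median fold change, among all peaks and among those near microRNA genes. On chromosome 14, 45 of 113 peaks near microRNA genes were called in βTC6 and 1 in αTC1, where all peaks of that chromosome gave 35.5% and 0.848%, and their median log2 fold change was 1.74 against 1.54 over the whole chromosome. Outside it the counts were 271 and 126 of 1908, with backgrounds of 11.9% and 5.59%. Chromosome 8 and chromosome 9 were where the medians near microRNA genes stood farthest from those of their chromosome, at 0.81 against -0.02 and at -1.03 against -0.28. On chromosome 9, 26 of the 64 peaks were named for Mir101c, described below. Within 1 Mb, 248 of the 316 peaks more open in βTC6 had neighbours whose median log2 fold change was also above 0, and 102 of the 127 more open in αTC1 had neighbours with a median below 0. Of the 1578 called in neither line, 1073 had neighbours with a median of their own sign. The same counts over all peaks were not made, so no background is given for these.

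**Figure D2:**
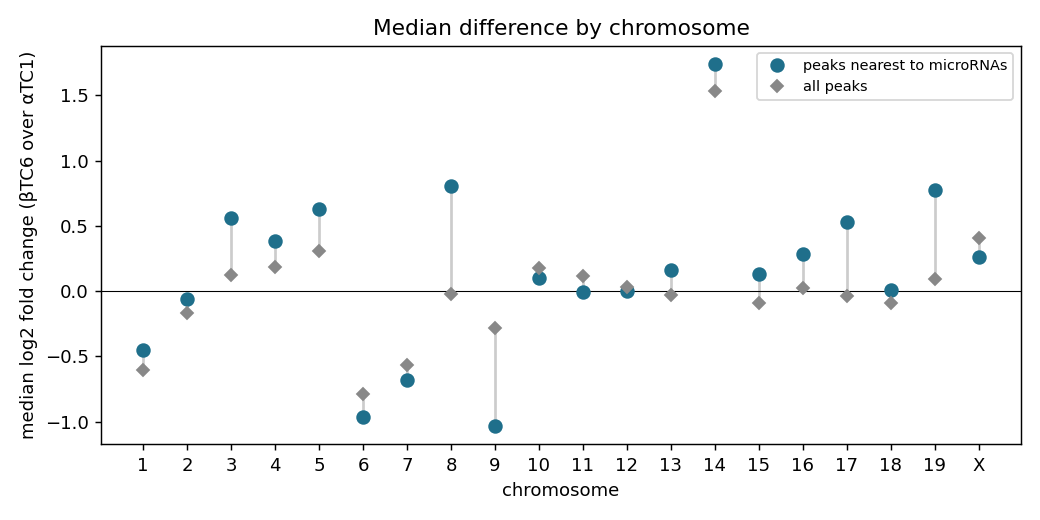
Median log2 fold change (βTC6 over αTC1, y axis) of the peaks on each mouse chromosome (x axis), for peaks nearest to microRNA genes (circles) and for all consensus peaks (diamonds). Chromosome 14 lay highest in both sets, at 1.74 and 1.54, and chromosomes 8 and 9 showed the widest gaps between them.

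For 61 listed microRNAs, the peak closest to the microRNA was examined (the lists hold microRNAs with a record in islets, the miR-200, let-7, miR-17-92 and miR-15/16 families, the imprinted Dlk1-Dio3 cluster, and microRNAs of other cell types). Of these 61 peaks, 20 of them within 2 kb, 6 were called in βTC6 and 4 in αTC1 (12.9% and 5.38% of all peaks), and 51 did not pass, with log2 fold changes from -1.86 to 1.92. On the FDR alone 20 were higher in βTC6, 28 in αTC1 (39.9% and 38.1% of all peaks) and 13 in neither. The peaks that passed were those of Mir17, Mir195b, Mir146, Mirlet7c-1, Mir124a-2 and Mir30b on the βTC6 side and of Mir33, Mir199a-1, Mir96 and Mir667 on the αTC1 side. Some were far from their microRNA, such as that of Mir195b at 72118 bp and that of Mir199a-1 at 33195 bp. With a pseudocount of 5 in place of 1, 35 of the 57 named calls fell under the fold threshold. At the listed microRNAs the calls kept were those of Mir17 at -1434 and -2939 bp, Mir195b at +72118 bp, Mir99a at -25713 bp, Mir30d at -75184 bp, Mir130a at -9079 bp, Mir33 at -1777 bp and Mir29b-1 at -37378 bp.

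**Figure D3:**
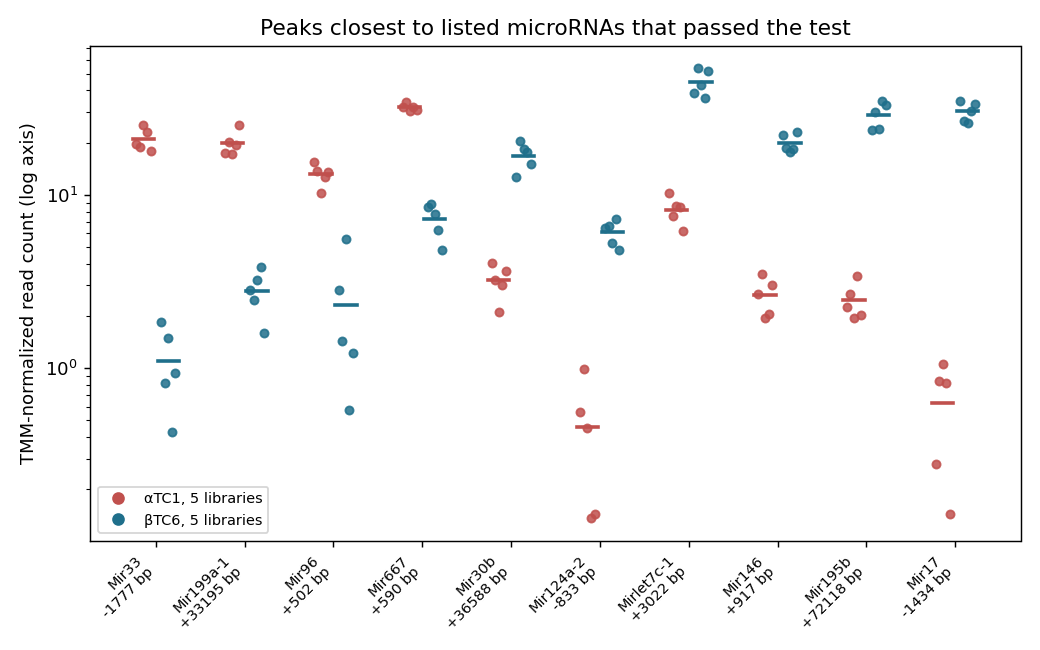
TMM-normalized read count (y axis, log scale) in each of 5 αTC1 and 5 βTC6 libraries for the 10 peaks closest to a listed microRNA that passed the test, ordered by log2 fold change and labelled with the distance from the microRNA start in bp; bars are group means. At Mir17 the αTC1 libraries reached 1.05 at most and the βTC6 libraries 25.9 at least.

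The widest of these differences was at the miR-17-92 cluster, a polycistron induced by Myc and best known for driving proliferation. Its peak at -1434 bp (chr14:115441121-115441796, between genes, upstream of the host transcript Mir17hg) had normalized read counts of 0.28, 0.843, 1.05, 0.819 and 0.144 in the αTC1 libraries, which are 2, 6, 7, 6 and 1 reads, and of 34.9, 26.7, 25.9, 30.2 and 33.5 in the βTC6 libraries. The site was all but closed in every αTC1 library and open in every βTC6 library. The log2 fold change was 4.29 (SE 0.21, limma adjusted p = 7e-13), the other peaks within 1 Mb had a median of 2.202, and with each chromosome centred on its median the value was 2.76. Another peak at -2939 bp was also higher in βTC6, with 0.992 ± 0.592 in αTC1 and 31.0 ± 6.43 in βTC6 (SD, n = 5 each; log2 fold change 4.03), and the peak at -25814 bp had 2.75 ± 1.43 and 13.6 ± 2.61 (2.05). The call at -25814 bp was lost without αTC1 replicate 3 (1.80), βTC6 replicate 3 (1.997) or βTC6 replicate 5 (1.96), within replicates 4 and 5 (1.66), and with chromosomes centred (0.52). The peak at +8260 bp of Mir92-1, the last microRNA of the same transcript, had 0.425 ± 0.171 and 2.38 ± 1.77, with βTC6 libraries from 0.428 to 4.98 (log2 fold change 1.09), and changed sign with chromosomes centred (-0.44).

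The RNA of the cluster's host was sparse. Mir17hg had 0 expected counts in each of 3 αTC1 libraries and 12, 22 and 17 in the βTC6 libraries. It was under the FPKM minimum and so outside the genes tested. Without that filter it passed in βTC6 (edgeR adjusted p = 0.000148), and no fold is given because αTC1 had no read.

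The middle of the Mir17 peak is printed because it is the sequence that was open in 1 line only. It is chr14:115441309-115441608 (NCBIM37, plus strand), with a GC content of 74.7%, and capitals mark 2 matches to AGGGGGC, the core of the motif of the insulator protein CTCF, both on the minus strand. Of all peaks, 7.56% hold that motif on either strand in a central window of 300 bp.
Mir17, -1434 bp: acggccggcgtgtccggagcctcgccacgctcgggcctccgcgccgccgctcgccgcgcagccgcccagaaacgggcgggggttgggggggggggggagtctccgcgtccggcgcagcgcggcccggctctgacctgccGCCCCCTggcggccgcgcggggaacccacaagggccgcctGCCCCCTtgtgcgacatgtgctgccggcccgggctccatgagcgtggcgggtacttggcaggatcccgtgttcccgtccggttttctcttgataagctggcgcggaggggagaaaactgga

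The miR-15/16 family restrains the cell cycle by targeting cyclins and Bcl2. Among the 3 listed genes of the family with peaks, the largest log2 fold change was at Mir195b. Its peak at +72118 bp (chr2:56709939-56710741) had 2.24, 2.67, 1.95, 3.41 and 2.02 in αTC1 and 23.7, 29.9, 23.9, 34.7 and 32.8 in βTC6. Every βTC6 library was above every αTC1 library by several-fold (log2 fold change 3.12, SE 0.17, limma adjusted p = 3.96e-12). At -245652 bp another Mir195b peak gave 4.35 ± 0.947 and 27.9 ± 2.21 (2.45). These sites are far away, and they are Mir195b peaks only by being nearest to it. By contrast the peak of Mir15a at -16569 bp, in an exon of the host transcript Dleu2 on chromosome 14, had 19.0 ± 4.51 and 29.6 ± 4.58 (log2 fold change 0.63, -0.90 with chromosomes centred), and that of Mir16-2 in Smc4 had 5.61 ± 1.37 and 3.07 ± 0.326 (-0.68). Over these 3 genes 2 of 8 peaks were called, both in βTC6, where 12.9% of all peaks were. The other genes with the seed are Mir6342, Mir6353 and Mir6419, and over all 6 genes 5 of 22 peaks were called in βTC6 and 1 in αTC1 (5.38% of all peaks).

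The let-7, miR-99 and miR-125 clusters showed calls in both directions within 1 seed family. Let-7 microRNAs hold cells in a differentiated state and target genes of insulin signalling. Of 36 peaks at 8 genes, 7 (19.4%) were called in βTC6 and 2 (5.56%) in αTC1, beside 12.9% and 5.38% of all peaks, with a median of -0.38. The peak of Mirlet7c-1 at +3022 bp (chr16:77602471-77603376) had 10.2, 7.59, 8.57, 8.46 and 6.21 in αTC1 and 38.6, 53.5, 42.7, 36.1 and 51.8 in βTC6. The lowest βTC6 library stood well above the highest αTC1 library (log2 fold change 2.30, SE 0.14, limma adjusted p = 1.44e-11).

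In the same chromosome 16 cluster, called peaks were also nearest to Mir99a, inside introns of the transcript 2810055G20Rik, and to Mir125b-2. At -25713 bp of Mir99a the counts were 1.82, 2.81, 2.40, 3.0 and 1.88 in αTC1 and 29.0, 33.4, 33.2, 30.0 and 37.2 in βTC6. The log2 fold change of 3.32 (SE 0.16) was the largest of 4 called Mir99a peaks, the others being at -134202 bp (3.07), -131553 bp (2.64) and -30403 bp (2.07, or 1.89 and not called without αTC1 replicate 4). Next to Mir125b-2, the peak at +30774 bp gave 0.62 ± 0.325 and 10.7 ± 3.68 (2.82), while the peak at -1978 bp gave 20.0 ± 1.69 and 43.8 ± 14 (1.05), with βTC6 replicate 5 at 68.1. The peak closest to Mir99a itself, at -4893 bp, had 1.56 ± 0.289 and 2.21 ± 1.02 (0.28). The neighbours of these peaks within 1 Mb had medians between 0.46 and 0.56, which is below the log2 fold changes of the called peaks.

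On the αTC1 side, the Mirlet7a-1 peak at -28189 bp gave -2.41 (SE 0.23), from 9.88 ± 1.14 in αTC1 and 1.10 ± 0.619 in βTC6. Mirlet7i had 1 peak of each kind. At +24620 bp, between genes, αTC1 had 1.41 ± 0.766 and βTC6 14.8 ± 2.97 (2.76), and at +85088 bp, in an intron of the phosphatase gene Ppm1h, αTC1 had 27.3 ± 2.47 and βTC6 3.64 ± 0.899 (-2.62). Its closest peak at -261 bp was under the fold threshold, with 47.7 ± 7.63 and 29.2 ± 3.68 (-0.68). Mirlet7b at +2050 bp showed 8.76 ± 1.65 and 7.54 ± 1.60 (-0.20, limma adjusted p = 0.335).

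The islet list had 110 peaks at 35 genes, of which 10 (9.09%) were called in βTC6 and 12 (10.9%) in αTC1, beside 12.9% and 5.38% of all peaks, with a median of -0.44. miR-375 itself, the best known of them, lay under an open site in both lines. The peak at -257 bp (chr1:74947072-74948031) had 69.2, 67.6, 69.7, 78.9 and 67.6 in αTC1 and 27.3, 28.3, 27.3, 24.0 and 19.6 in βTC6. The αTC1 libraries were higher without overlap, by a log2 fold change of -1.45 (SE 0.10, limma adjusted p = 1.27e-10), which did not reach the fold threshold. A second peak at -1491 bp, in an exon of Ccdc108, had 45.1, 36.5, 51.4, 44.4 and 54.2 against 11.5, 8.0, 14.1, 12.1 and 8.73. It passed at -2.01 (SE 0.14), and that call was lost without αTC1 replicate 3 (-1.97) or replicate 5 (-1.95), without βTC6 replicate 2 (-1.91) or replicate 5 (-1.94), within replicates 1 to 3 (-1.91) and with chromosomes centred (-1.56). Quantile normalization also took the call. Peaks within 1 Mb of both sites had a median of -1.12.

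The centre of the Mir375 promoter peak is printed because it lies at the start of the best known islet microRNA and was open in both lines to an unequal degree. It is chr1:74947402-74947701 (NCBIM37, plus strand), with a GC content of 66%, and capitals mark 1 match to TGACTCA, the AP-1 site, which 10.4% of all peaks hold in a window of 300 bp.
Mir375, -257 bp: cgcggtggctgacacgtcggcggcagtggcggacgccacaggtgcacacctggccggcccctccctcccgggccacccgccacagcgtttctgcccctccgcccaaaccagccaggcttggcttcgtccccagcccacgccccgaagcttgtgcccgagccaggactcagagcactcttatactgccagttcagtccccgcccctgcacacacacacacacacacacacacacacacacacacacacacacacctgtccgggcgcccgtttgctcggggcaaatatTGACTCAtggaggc

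The steepest αTC1 peak of the whole set belonged to Mir130a, a microRNA of the islet list that is also studied in blood vessel growth. At -9079 bp (chr2:84589925-84590903, between genes) αTC1 had 78.7, 74.9, 86.3, 77.9 and 75.0 and βTC6 had 3.98, 1.03, 2.84, 2.00 and 1.22. The site was closed or nearly so in βTC6, with a log2 fold change of -4.71 (SE 0.19, limma adjusted p = 7.29e-14), the lowest among all 2021 peaks, while its neighbours within 1 Mb had a median of -0.60. The peak closest to Mir130a, at -2582 bp, had 22.9 ± 2.42 and 12.5 ± 3.13 (-0.84). In the central 300 bp of the peak at -9079 bp (chr2:84590265-84590564, NCBIM37, plus strand, GC content 44.3%), capitals mark 3 matches to CAGCTG, the E-box bound by basic helix-loop-helix factors, and 1 match to GTTGCC on the minus strand, a motif of RFX factors. Of all peaks, 23.8% hold the first and 12.3% the second in such a window.
Mir130a, -9079 bp: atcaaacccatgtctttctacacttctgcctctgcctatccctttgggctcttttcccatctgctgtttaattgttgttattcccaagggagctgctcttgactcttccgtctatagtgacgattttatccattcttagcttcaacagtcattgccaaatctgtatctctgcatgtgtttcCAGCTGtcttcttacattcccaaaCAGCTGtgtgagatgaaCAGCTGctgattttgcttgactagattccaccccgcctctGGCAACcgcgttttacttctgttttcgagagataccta

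Other islet microRNAs on the αTC1 side were Mir33, Mir96, Mir29b-1, Mir148a and Mir26a-1. miR-33 sits in an intron of Srebf2, the master factor of cholesterol synthesis, and lowers cholesterol export. Its peak at -1777 bp (chr15:82026446-82027103) had 19.6, 18.8, 25.4, 22.9 and 17.8 in αTC1 and 1.85, 0.820, 1.49, 0.428 and 0.939 in βTC6. The βTC6 libraries were each below 2 (log2 fold change -3.41, SE 0.22, limma adjusted p = 2.76e-11), and a peak further upstream at -11770 bp had -2.38. Srebf2 RNA had 63.1 ± 8.82 FPKM in αTC1 and 30.3 ± 4.42 FPKM in βTC6 (-0.99, edgeR adjusted p = 0.000123).

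miR-96 belongs to the miR-183 cluster of sensory and islet cells. Its peak at +502 bp had 15.4, 13.8, 10.2, 12.7 and 13.6 in αTC1 and 2.84, 1.44, 5.54, 0.571 and 1.22 in βTC6. Despite the wide spread of the βTC6 libraries there was no overlap (log2 fold change -2.26, SE 0.29), and the call was lost within replicates 1 to 3 (-1.82) and with chromosomes centred (-1.61). miR-29 represses the pyruvate carrier Mct1 in beta cells. Of 3 called peaks far upstream of Mir29b-1, that at -37378 bp had 81.0 ± 15.9 in αTC1 and 4.64 ± 1.58 in βTC6 (-3.89, SE 0.17), and those at -43552 bp (-2.26) and -58141 bp (-2.05) passed by less. The last was not called without αTC1 replicate 5 (-1.95) or without βTC6 replicate 1 (-1.996), and with chromosomes centred neither was (-1.60 and -1.39).

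Mir148a, whose product is abundant in liver and pancreas, had 3 called peaks downstream, at +99075 bp (28.8 ± 5.07 in αTC1, 4.24 ± 1.61 in βTC6, -2.55), +62582 bp (-2.10, or -1.85 without βTC6 replicate 5) and +53253 bp (-2.01). The last call was lost without any of αTC1 replicates 2 (-1.99), 4 (-1.93) and 5 (-1.94) or of βTC6 replicates 3 (-1.93), 4 (-1.998) and 5 (-1.91), and with chromosomes centred none of the 3 was called (-1.89, -1.45 and -1.35). Mir26a-1, which lies in an intron of the phosphatase gene Ctdspl, had a peak at -24465 bp with 17.0 ± 1.83 and 0.646 ± 0.58 (-3.51, SE 0.23). Ctdspl RNA differed by -0.35 (edgeR adjusted p = 0.00691), and the closest peaks of Mir26a-2 and Mir26b, in or near the sister genes Ctdsp2 and Ctdsp1, by -0.26 and -1.43.

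On the βTC6 side, Mir146, whose product damps NF-κB signalling, had at +917 bp (chr11:43186777-43187314) 2.66, 3.51, 1.95, 2.05 and 3.03 in αTC1 and 22.0, 18.7, 17.6, 18.4 and 23.0 in βTC6. The lines did not overlap (log2 fold change 2.53, SE 0.18, limma adjusted p = 1.15e-10). Mir124a-2, 1 of 3 genes of the neuronal miR-124, had at -833 bp 0.455 ± 0.349 and 6.06 ± 1.01 (2.30, SE 0.20, or 1.93 and not called under quantile normalization), while the other two genes did not pass, with 0.64 at Mir124a-1 (-0.89 with chromosomes centred) and -0.01 at Mir124a-3. Far from their microRNAs, the peaks of Mir30d at -75184 bp (0.902 ± 0.348 and 23.2 ± 2.27, log2 fold change 3.69) and -104164 bp (2.51), Mir30b at +36588 bp (2.08, or 1.98 and not called without αTC1 replicate 3), Mir204 at -13552 and +156128 bp in the channel gene Trpm3 (2.65 and 2.55), Mir107 at -21158 bp in the pantothenate kinase gene Pank1 (2.51) and Mir129-1 at -59191 bp (2.01) were also more open in βTC6. The Mir30b call was also lost under quantile normalization. The Mir129-1 call was lost without αTC1 replicate 4 (1.93) or 5 (1.79), without βTC6 replicate 2 (1.997) or 5 (1.92), and within replicates 1 to 3 (1.53).

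Mir9-2, of a neuronal family that also limits insulin release, was split. Its peak at -445 bp, in an exon of the host transcript C130071C03Rik, had 24.2, 26.5, 28.3, 18.3 and 19.9 in αTC1 and 8.95, 5.33, 6.08, 6.85 and 9.20 in βTC6. The αTC1 libraries were higher (log2 fold change -1.57, SE 0.16) but under the fold threshold. At +21837 bp the order turned, with 1.51 ± 0.633 in αTC1 and 11.7 ± 1.65 in βTC6 (2.37, SE 0.22, or 1.98 and not called under quantile normalization). The host RNA had 500, 474 and 426 expected counts in αTC1 and 7, 2 and 5 in βTC6 (-6.65, SE 0.29, edgeR adjusted p = 1.17e-07), the direction of the exonic peak.

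miR-7, miR-200 and miR-184 sites were near the threshold, variable or flat. Mir7-2 at -477 bp had 1.12, 1.55, 1.05, 2.59 and 0.578 in αTC1 and 8.24, 7.59, 7.16, 7.28 and 7.98 in βTC6. The βTC6 libraries were higher without overlap, but 1.92 (SE 0.23, limma adjusted p = 1.88e-07) stayed under the fold threshold, which edgeR on recovered reads (2.45), centred chromosomes (2.51) and the fit without αTC1 replicate 4 (2.08) passed. Mir7b, with the same seed, had 29.0 ± 3.13 and 25.7 ± 5.42 at -1094 bp (-0.19, adjusted p = 0.196), and Mir184 at +24651 bp 10.8 ± 1.72 and 10.5 ± 0.767 (-0.02, adjusted p = 0.922). Mir200b, of the family that guards the epithelial state, had 0.70, 1.40, 1.35, 2.18 and 1.44 in αTC1 and 9.94, 6.77, 7.97, 4.57 and 1.97 in βTC6 at -4128 bp. The lowest βTC6 library fell within the αTC1 range, and the log2 fold change of 1.48 (SE 0.29) was 2.103 within replicates 1 to 3 and 0.54 within replicates 4 and 5.

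Of the remaining lists, the miR-17-92 and paralogous clusters had 3 of 4 peaks more open in βTC6, all at Mir17 on chromosome 14, where 35.5% of all peaks were called in βTC6, and the miR-200 family 0 of 1 (12.9% of all peaks). The list of imprinted Dlk1-Dio3 microRNAs had 1 peak, at +590 bp of Mir667, with 31.9, 34.4, 30.2, 32.1 and 30.9 in αTC1 and 8.52, 8.82, 7.70, 6.28 and 4.79 in βTC6. Its call at -2.03 (SE 0.14) was lost without αTC1 replicate 2 (-1.999) or βTC6 replicate 4 (-1.99) or 5 (-1.91) and within replicates 1 to 3 (-1.83). Mirg, a long transcript of the same imprinted cluster, had 42, 26 and 105 expected counts in αTC1 and 494, 495 and 449 in βTC6 (3.02, SE 0.37, edgeR adjusted p = 7.2e-05). Its microRNA Mir3072, which is on no list and was looked at after its values were seen, had peaks at +2119 bp (7.96 ± 1.61 and 19.0 ± 2.86, 1.17) and at +147488 bp (0.683 ± 0.183 and 6.96 ± 3.52, 2.07, called in βTC6), the direction of Mirg. MicroRNAs of other cell types had 31 peaks at 11 genes (with 12.9% of all peaks called in βTC6 and 5.38% in αTC1), of which 1 was more open in βTC6 (Mir214, at +123436 bp, 2.097) and 4 in αTC1: Mir199a-1 at +33195 bp in Dnm2 (19.8 ± 3.23 and 2.80 ± 0.847, -2.47), Mir122 at -61716 bp in Nedd4l (-2.78) and Mir499 at +18004 and +19434 bp in Trpc4ap (-2.20 and -2.14, the latter -1.96 and not called without βTC6 replicate 2). The Mir214 call was lost within replicates 4 and 5 (1.79).

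Beyond the lists, the peaks with the largest moderated t-statistic lay at the following microRNAs. Mir5130 had the largest on the βTC6 side. Its peak at +238 bp (chr14:103380636-103382585, in an intron of Gm17446) had 18.5, 16.2, 16.4, 13.6 and 12.1 in αTC1 and 126, 119, 127, 127 and 131 in βTC6. The libraries of each line lay close together (log2 fold change 2.97, SE 0.10, limma adjusted p = 9.19e-15), but its neighbours on chromosome 14 had a median of 1.76, and with chromosomes centred the value was 1.45 and not called.

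Mir346 had the highest log2 fold change of the set, at a site +218320 bp away in an intron of Grid1, which encodes a glutamate receptor-like protein of synapses. The counts were 0.70, 0.843, 0.751, 0.682 and 0.722 in αTC1 and 41.5, 42.3, 42.0, 34.7 and 48.8 in βTC6. The difference was 4.61 (SE 0.16, limma adjusted p = 1.28e-14), or 3.09 with chromosomes centred. Mir7021 at +226806 bp (4.48), Mir1951 at +49807 bp (4.31), Mir7j at +449828 bp (4.09), Mir31 at -27799 bp (3.70), Mir6417 at +84016 bp (3.14) and Mir879 at -36502 bp (2.85) followed. All 6 stayed called with chromosomes centred, at 2.52 to 4.44.

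On the αTC1 side the largest t-statistic was at Mir7661, with a peak at -41271 bp in an intron of the calcium channel gene Itpr1 (chr6:108397977-108398955). It had 91.5, 80.6, 97.1, 94.2 and 108 in αTC1 and 4.12, 3.69, 5.00, 5.14 and 3.66 in βTC6. The lines were far apart (log2 fold change -4.17, SE 0.12, limma adjusted p = 1.17e-15), and Itpr1 RNA differed by -0.83. Next came Mir7082 at -5688 bp in an exon of Raver1 (-4.16), Mir6900 at +32399 bp (-4.06), Mir7669 at +28536 bp (-2.96), Mir6353 at +617 bp in an intron of Pid1 (-2.79), Mir7670 at -25247 bp in Ubn2 (-2.34) and Mir1231 at -61119 bp in Nav1 (-2.11), besides Mir130a. With chromosomes centred Mir7670 (-1.69) and Mir1231 (-1.67) were not called, and Mir1231 was not called under quantile normalization (-1.80).

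The microRNA genes with the most peaks were Mir691, Mir582, Mir346 and Mir101c. Mir691, whose gene lies in the axon guidance receptor gene Robo2, had 37 peaks over 834 kb, 6 more open in βTC6 and 1 in αTC1 (12.9% and 5.38% of all peaks), with log2 fold changes from -2.10 to 2.96. Mir582, in the phosphodiesterase gene Pde4d, had 28 peaks, 6 and 3 of them called beside the same shares, from -2.71 to 3.90. Robo2 and Pde4d RNA differed by 0.40 and -1.07. Both genes thus had peaks on either side of 0.

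At Mir346 all 26 peaks had a log2 fold change above 0, from 0.06 to 4.61 with a median of 1.95, and 12 were called in βTC6 and 0 in αTC1, beside a median of 1.75 for their neighbourhood and 35.5% of all peaks of chromosome 14 called in βTC6. Grid1, which holds it, had 2, 1 and 4 expected counts in αTC1 and 690, 768 and 915 in βTC6 (8.30, SE 0.29, edgeR adjusted p = 3.39e-08). Mir876 on chromosome 4 had 6 of 8 peaks more open in βTC6 (median 2.96), where 571 of all 4274 peaks of the chromosome were, and Mir3106 on chromosome 8 had 5 of 11 more open in αTC1 (median -1.97), where 179 of all 3565 were. These genes, and Mir5130, also on chromosome 14, with 9 of 20 peaks more open in βTC6, were chosen after their values were seen.

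**Figure D4:**
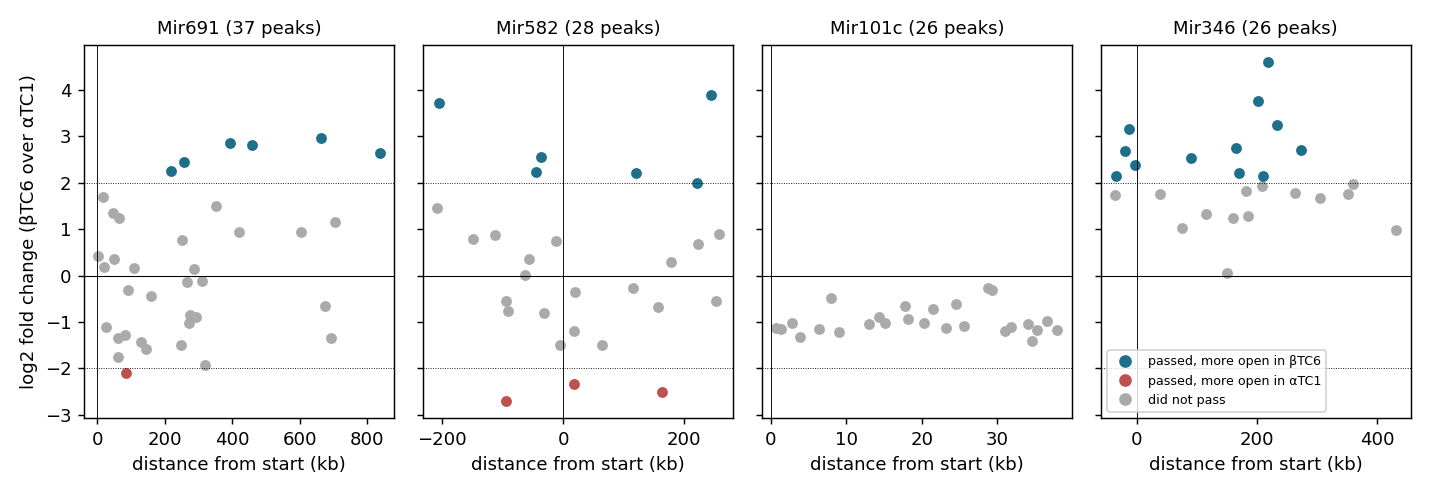
Log2 fold change (βTC6 over αTC1, y axis) of each peak against its distance from the microRNA start in kb (x axis), for the 4 microRNA genes with the most peaks; blue points passed the test in βTC6, red points in αTC1, grey points did not pass, and dotted lines mark the fold threshold. Peaks of Mir346 were all above 0 with 12 called, those of Mir101c were all below 0 with 0 called, and those of Mir691 and Mir582 lay on both sides.

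Mir101c also had 26 peaks, none of them called, packed into chr9:3000013-3038220 at the very start of the chromosome. Their log2 fold changes ran from -1.40 to -0.28. The sequence of that interval repeated with a period of 234 bp, at which 71.3% of its bases were equal to their counterparts (median over other shifts 31.3%). How reads were placed within it was not tested. These 26 peaks held 16.7% to 38.4% of all reads near microRNA genes in αTC1, 9.97% to 20.8% in βTC6 and 14.3% to 33.9% in the mixtures.

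The peak with the highest mean count of the set was 1 of these, at +14342 bp. It had 530.4, 558, 557, 5423 and 4359 in αTC1 and 345, 473, 347, 2365 and 1280 in βTC6. Replicates 4 and 5 of both lines, for which the study's quality table gives the mitochondrial share on another basis than for replicates 1 to 3, were several-fold above replicates 1 to 3, and the lines overlapped. The log2 fold change of -0.90 (SE 0.61, limma adjusted p = 0.186) was -0.51 within replicates 1 to 3, -1.48 within replicates 4 and 5 and 0.16 under quantile normalization. Without the Mir101c peaks the counts of called peaks were 316 and 127 as before.

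Next, the RNA of host genes was compared. Of 273 microRNA genes lying in a gene of the RNA-seq tables on the same strand, 219 hosts were tested, of which 27 (12.3%) were higher in βTC6 and 14 (6.39%) in αTC1 at the same thresholds, with backgrounds of 10.2% and 4.08% over 12195 genes. At the FDR alone the counts were 85 and 89, beside 38.7% and 36% of the genes. The median log2 fold change was -0.03, against 0.01 over all genes. Among 38 tested hosts whose microRNA peaks were called in βTC6 only, 11 were higher in βTC6 and 2 in αTC1, with a median of 0.46. Among 23 with calls in αTC1 only, 6 were higher in αTC1 and 0 in βTC6, with a median of -0.77, and among 149 without a called peak 16 and 6 were, with a median of 0.06. In these bulk libraries fewer cells with an RNA and less RNA a cell cannot be told apart.

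Pid1, an adaptor of insulin signalling that holds Mir6353, had 6.24 ± 0.743 FPKM in αTC1 and 1.27 ± 0.275 FPKM in βTC6 (-2.10, edgeR adjusted p = 3.97e-06). Of the 8 Mir6353 peaks, the one at +617 bp was called in αTC1 (-2.79) and the other seven were not called, with a median over all 8 of 0.60. Aatk, a neuronal kinase gene that holds Mir338, had 2.52 ± 1.09 and 15.6 ± 2.19 FPKM (2.67, edgeR adjusted p = 6.09e-06), and the Mir338 peak at -8018 bp had 12.4 ± 1.24 and 26.4 ± 4.35 (1.02), under the fold threshold. BC052040, which holds Mir1951, had the sign opposite to its peak without passing the fold threshold, with 13.4 ± 0.596 and 8.57 ± 0.514 FPKM (-0.59, edgeR adjusted p = 0.000223). Copz2, a vesicle coat gene with Mir152, had 9.28 ± 2.49 and 29.1 ± 5.27 FPKM (1.70, under the fold threshold), while the Mir152 peak at +11761 bp differed by -0.37.

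Exact motifs were counted under the peaks. In the central 200 bp, CAGCTG was found in 30.7% of the 127 peaks more open in αTC1 and in 18.0% of the 316 more open in βTC6, beside 31.0% and 14.3% of all peaks called in those lines and 17.2% of all peaks. TAATTA, the core bound by homeodomain factors, was found in 12.7% of those more open in βTC6 and 3.15% of those more open in αTC1, beside 13.0% and 4.20%. Median GC content was 43% and 50%. AGGGGGC, the CTCF core seen in the Mir17 peak, was found in 8.33% of peaks within 2 kb of a microRNA and 9.71% of all peaks within 2 kb of a gene. Of the other motifs searched, TGTTTAC, the forkhead core, was held by 7.17% of the peaks near microRNA genes and 6.31% of all peaks, and TGCTGAC, of the MAF factors, by 6.09% and 4.86%. The RFX motif GTTGCC was held by 7.77% and 8.59%, and the AP-1 site TGACTCA by 9.10% and 7.63%. For both TGTTTAC and TGACTCA the order of the lines near microRNA genes was not that of all called peaks. TGTTTAC was in 9.81% of the peaks called in βTC6 and 4.72% of those called in αTC1, against 7.90% and 8.54% of all called peaks, and TGACTCA in 9.18% and 7.87%, against 8.06% and 12.1%. These shares were not tested. Matches were exact and on both strands, and no 2 of the 7 motifs are contained in each other.

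Finally, the peaks were followed through the mixtures, which took no part in the test between the pure lines. Per the study's methods the consensus peaks were merged from all samples. With an exact permutation test of Pearson's r between count and αTC1 percentage over the 9 mixtures, adjusted over all peaks, 677 of the 2021 peaks rose with the βTC6 percentage and 485 with the αTC1 percentage, beside backgrounds of 30.1% and 21.8%. Without the 10% and 90% mixtures 324 and 186 did, beside 14% and 8.37% of all peaks. Of the 316 peaks more open in βTC6, 304 (96.2%) did so in the matching direction, against 95.8% of all peaks called in βTC6, and of the 127 more open in αTC1, 119 (93.7%) did, against 94.3%. Of the 1578 peaks called in neither line, 373 (23.6%) rose with the βTC6 percentage and 366 (23.2%) with the αTC1 percentage, beside 21.7% and 20.4% of all such peaks. The exceptions among the named called peaks were Mir29b-1 at -43552 bp (r = 0.657) and Mir33 at -11770 bp (r = 0.69).

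At Mir17 (-1434 bp) the count fell along the series from 36.2 at 10% αTC1 over 27.0, 18.7, 21.8, 12.7, 8.60, 7.47 and 4.51 to 4.27 at 90%. The order had 1 exception, at 40% (r = -0.953, exact permutation adjusted p = 0.000678, rho = -0.983, adjusted p = 0.000932; r = -0.957 without the 10% and 90% mixtures). Mir130a (-9079 bp) rose from 11.8 over 17.4, 27.1, 34.2, 34.0, 46.8, 45.8 and 61.8 to 63.8 (r = 0.985, exact permutation adjusted p = 0.000574, rho = 0.967, adjusted p = 0.00176; r = 0.968 without the outermost mixtures). Mirlet7c-1 (+3022 bp) stayed between 32.3 and 39.0 up to 40% and then fell to 6.71 at 90% (r = -0.951, exact permutation adjusted p = 0.00146, rho = -0.933, adjusted p = 0.0042, and r = -0.985 without the outermost mixtures).

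Mir375 at -257 bp rose from 25.6 to 59.5 (r = 0.917, exact permutation adjusted p = 0.00409, rho = 0.9, adjusted p = 0.00807, and r = 0.845 without the outermost mixtures), whereas at -1491 bp counts of 14.4, 23.7, 28.4, 29.0, 21.2, 26.2, 27.5, 38 and 45.1 gave r = 0.818 (exact permutation adjusted p = 0.0145, rho = 0.7, adjusted p = 0.0789), and r = 0.559 without the outermost mixtures. That relation rests on the 10% and 90% mixtures. Mir7-2 at -477 bp, not called in the pure lines, had r = -0.742 (exact permutation adjusted p = 0.0499), and r = -0.692 without the outermost mixtures. Mir200b at -4128 bp stood at 0.203 to 1.78 in the mixtures, below each of the 5 pure βTC6 libraries even at 10% αTC1 (1.61), and did not follow the percentage (r = -0.661, exact permutation adjusted p = 0.0958).

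**Figure D5:**
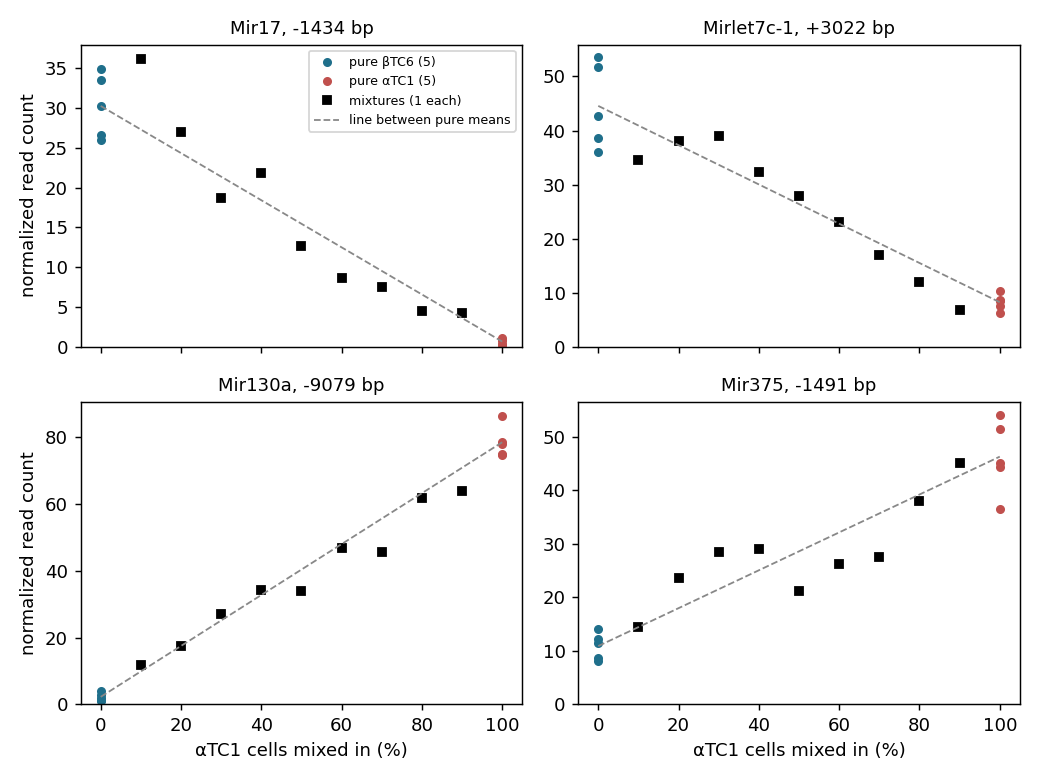
TMM-normalized read count (y axis) against the percentage of αTC1 cells mixed in (x axis) for peaks of Mir17, Mirlet7c-1, Mir130a and Mir375; blue and red circles are the 5 pure βTC6 and 5 pure αTC1 libraries, black squares the 9 mixtures (1 library each) and the dashed line joins the pure means. Mir17 fell and Mir130a rose with the percentage, Mirlet7c-1 stayed between 32.3 and 39.0 up to 40% and then fell, and Mir375 at -1491 bp was uneven between 40% and 70%.

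Used together, the 443 called peaks gave the make-up of each mixture by non-negative least squares on the mean pure profiles. The estimated αTC1 percentages were 9.52, 21.4, 38.2, 42.9, 50.5, 66.6, 73.4, 85.1 and 92.9 for mixtures made with 10, 20, 30, 40, 50, 60, 70, 80 and 90%. The estimate was above the mixed percentage in 8 of 9, by a mean absolute error of 3.50 percentage points and at most 8.20, at 30%. The SD of an estimate over 5 pairs of pure libraries, matched by replicate number only, was 0.954 to 2.11 percentage points. It covers the choice of pure libraries and not the error of a mixture, each of which was 1 library. Estimates rose in the order of the mixed percentages (rho = 1, r = 0.995, each with exact permutation p = 5.51e-06, the least possible over 9 mixtures). Leaving out the 10% and 90% mixtures gave r = 0.992. The 443 peaks were chosen for differing between the pure lines whose means were fitted, so a close ranking would be likely from any called set. An estimate from all called peaks was not made, so r and p say nothing particular to peaks near microRNA genes.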

How the data were processed

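ATAC-seq values were taken from the table the authors deposited, in which reads in consensus peaks on mm9 (NCBIM37) are TMM-normalized read counts, a signal scaled per library. Per the study's methods, reads were trimmed with Trimmomatic and aligned with BWA, duplicates were removed with Picard, peaks were called with MACS per sample and merged with DiffBind where 2 or more samples shared them, and HOMER named the nearest gene. RNA-seq values were the expected counts and FPKM that the authors deposited from RSEM. Every ATAC-seq value was a whole multiple of its library's step (tolerance 0.02), so 100% of values gave whole reads. Called peak classes of the authors in the same table, which hold differential and signature calls, were not used.

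Peaks were selected by the name of the nearest gene. log2(normalized read count + 1) of 65053 peaks was tested with limma 3.58.1 (R 4.3.3, trended eBayes) between 5 αTC1 and 5 βTC6 libraries. Expected counts, rounded to whole numbers, were tested with edgeR 4.0.16 (quasi-likelihood, TMM) over the 12195 genes whose FPKM was 1 or more in each replicate of αTC1 or of βTC6. Calls needed an FDR under 5% (Benjamini-Hochberg) and a log2 fold change beyond 2. Mixtures were tested by exact permutation of Pearson's r. Named by rule were the peak closest to each listed microRNA, for each line the 8 called peaks whose moderated t-statistic was farthest from 0, the 3 microRNA genes with the most peaks (4 with a tie), the peak with the highest mean count, and their host genes. Called peaks of listed microRNAs other than the closest were added after their values were seen. The members and lists were chosen with earlier results of these data known. Distances are from the microRNA start, positive downstream. Mature sequences were RefSeq's (GRCm38.p6), found for 462 of 521 names. Hairpins were placed for 1634 peaks, with a largest gap of 1 bp, and peaks were compared with GENCODE genes on NCBIM37. limma, edgeR and the permutation test over the mixtures were tested on simulated data. Alternatives were another pseudocount, quantile normalization, chromosome centring, a minimum count, edgeR and DESeq2 1.42.0 on recovered reads, a replicate block and leaving out each library. Intervals of depth cover counting error only.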

Additional observations from a re-analysis of the deposited data

Results flagged for a closer look

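In 218 groups of 5 libraries (109 named peaks in each line), 12 (5.50%) had 1 library far from the other 4, with a gap over 0.71 of the group's range. Chance flags about 1 in 20 groups. The library apart was the highest in 8 cases, and it was βTC6 replicate 5 in 4 of the 12.

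Peaks with a high βTC6 library were Mir125b-2 at -1978 bp (replicate 5 at 68.1, the others 33.2 to 41.9), Mir204 at -13552 bp (replicate 5 at 17.7, the others 11.3 to 11.8), Mir302b at -46480 bp (replicate 5 at 44.6, the others 32.4 to 32.8), Mir99a at -4893 bp (replicate 5 at 3.94, the others 1.28 to 2.05) and Mir124a-1 at -801 bp (replicate 4 at 29.1, the others 19.9 to 21.2). In αTC1, the high libraries were replicate 4 of Mir375 at -257 bp (78.9, the others 67.6 to 69.7), replicate 3 of Mir26a-1 at -24465 bp (20.1, the others 15.4 to 16.8) and replicate 5 of Mir6353 at +617 bp (93.3, the others 72.9 to 77.7).

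Low αTC1 libraries were replicate 5 of Mir148a at +99075 bp (19.9, the others 29.8 to 32.2), replicate 2 of Mir184 at +24651 bp (7.73, the others 11.3 to 11.7), replicate 3 of Mir99a at -4893 bp (1.05, the others 1.59 to 1.77) and replicate 5 of Mirlet7i at -261 bp (34.2, the others 49.1 to 52.1). None of these libraries changed the call of its peak when left out.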

How the results depend on the processing

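The count of peaks called in βTC6 and αTC1 (316 and 127) was 67 and 24 with a pseudocount of 5 (1668 and 819 of all peaks), 507 and 196 with edgeR on recovered reads (13794 and 5739), 498 and 208 with DESeq2 on them (13612 and 5973), and 897 and 735 with the FDR alone. All 316 and 127 were among the edgeR calls, and 315 and 127 among the DESeq2 calls. Quantile normalization gave 220 and 180, of which 218 and 124 were shared, and centring each chromosome gave 300 and 109, of which 257 and 96 were shared. A mean count of at least 5 left 240 and 110 of 1269 peaks and moved the median of all peaks to -0.19. Leaving out each library in turn gave 303 to 328 and 116 to 132, and for hosts 26 to 27 and 13 to 15. Replicate numbers did not pair the samples (same-number correlations of -0.0019 to 0.069 in ATAC-seq and -0.034 to 0.017 in RNA-seq), and not every sample correlated best with its own number. The replicate block gave 316 and 127 peaks, and 27 and 14 hosts, with no call of a named peak changed.

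Without the 10% and 90% mixtures, 324 and 186 peaks followed βTC6 and αTC1 (14% and 8.37% of all peaks). The 90% mixture was estimated at 94.4% from peaks within 100 kb. Within 1 kb of the microRNA, 6 peaks were called in βTC6 and 10 in αTC1 of 111 (5.19% and 1.03% of all peaks), and within 5 kb 27 and 16 of 291 (6.23% and 2.38%). Hosts higher in βTC6 numbered 17 with limma on log2 FPKM. Of 57 named called peaks, 37 lost the call under at least 1 alternative, 35 of them with a pseudocount of 5. Quantile normalization took it from 9, among them Mir124a-2 (1.93), Mir30b (1.84), Mir9-2 (1.98) and Mir375 (-1.93), and chromosome centring from 11. Centring reversed Mir124a-1 at -801 bp (-0.89), Mir15a at -16569 bp (-0.90), Mir29c at +3040 bp (0.012) and Mir92-1 at +8260 bp (-0.44). The cause was not tested. Libraries in which 3 reads are worth 0.615 normalized reads limit what can be seen at peaks with few reads.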

Other observations

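Some hosts outside those named above also had RNA almost only in 1 line, and they were chosen after their values were seen. On the βTC6 side, Abcc4, which holds Mir6391, had 2, 1 and 1 expected counts in αTC1 and 1913, 1695 and 1936 in βTC6. Of 3 Mir6391 peaks 2 were called in βTC6. Fnbp1l, which holds Mir7657, had 1, 1 and 0 in αTC1 and 1691, 1697 and 1367 in βTC6. Of 4 Mir7657 peaks 0 were called. The hosts below are on the αTC1 side, though 27 tested hosts were higher in βTC6 and 14 in αTC1 (10.2% and 4.08% of all genes). Calcr, the calcitonin receptor gene, which holds Mir489 and Mir653, had 932, 1031 and 606 expected counts in αTC1 and 1, 0 and 4 in βTC6. Of 3 Mir653 peaks 1 was called, in βTC6, opposite to the RNA, and the 1 Mir489 peak was not called. Ephb1, an ephrin receptor gene that holds Mir7243, had 354, 343 and 430 expected counts (rounded) in αTC1 and 0 in each βTC6 library. Of 2 Mir7243 peaks 1 was called, in αTC1. Adam19, a metalloprotease gene that holds Mir8100, had 407, 486 and 1058 in αTC1 and 0, 1 and 0 in βTC6. Of 3 Mir8100 peaks 1 was called, in αTC1. Over all peaks 12.9% were called in βTC6 and 5.38% in αTC1.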
